A study of Mus musculus with 42 samples.

Results

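The lysosomal cathepsins and legumain are the proteases that break down protein inside the lysosome, and 10 of their genes were followed here among the 54532 genes of the expression tables: Ctsa, Ctsb, Ctsd, Ctsf, Ctsh, Ctsk, Ctsl, Ctss, Ctsz and Lgmn. They are listed by gene name and not by a threshold on their values, with earlier results of these data known. Their mRNA was read in 42 whole mouse kidneys, as poly-A RNA sequenced without strand information, in 14 groups of 3 mice on a C57BL/6 background. The Cagg cohort was examined at P30. It carried CaggCreERT2, a Cre recombinase active in the whole body after tamoxifen, which the pups of all 4 genotypes received through the milk of injected mothers. Its groups were control mice, called wild type in the labels and CaggCreERT2-positive with intact Tsc2 in the study's text, Tsc2 KO (Tsc2 fl/fl), Tfeb KO (Tfeb fl/fl) and DKO mice with both genes floxed. The KSP cohort was examined at P50. It carried KspCre, a Cre under the kidney-specific cadherin 16 promoter, with the same 4 genotypes and controls that the study's text gives as Cre-negative. A second KSP cohort at P50 held control, Tsc2 KO and DKO mice that received vehicle or rapamycin, an inhibitor of mTORC1, at 1 mg/kg 3 times per week for 11 injections into the peritoneum from P25. Knockout was limited to cells with Cre activity, so a whole kidney kept cells with intact alleles.

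Cathepsins are made as inactive precursors, are sorted to the lysosome largely through mannose 6-phosphate receptors, and mature in its acid lumen. Most are cysteine proteases of the papain family, while cathepsin D is an aspartic protease, cathepsin A a serine carboxypeptidase, and legumain a cysteine protease that cuts after asparagine and helps to mature several cathepsins. The transcription factor TFEB, which mTORC1 phosphorylates, activates many lysosomal genes through E-box sites with the core CACGTG. In the kidney the proximal tubule is rich in lysosomes, since it takes up filtered protein and degrades it.

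Counted reads ranged from 16047699 to 20865587 per library in the Cagg cohort, from 14926050 to 20541625 in the KSP cohort and from 15104557 to 22807605 in the drug cohort. The kidney label held in all 42 libraries, where Umod was at 580 FPKM or more and Cdh16 at 243 FPKM or more. Tsc2 was at 8.18 to 10.6 FPKM in the control libraries and at 3.55 to 4.55 FPKM in the Tsc2 KO libraries without rapamycin. It was at 4.82 to 5.64 FPKM in Cagg DKO, 5.17 to 5.81 FPKM in KSP DKO and 5.53 to 6.41 FPKM in vehicle-treated DKO. With rapamycin Tsc2 was at 5.83 to 5.97 FPKM in DKO. In rapamycin-treated Tsc2 KO it was at 5.06 to 6.50 FPKM, wholly above vehicle-treated Tsc2 KO at 3.80 to 4.47 FPKM. In each cohort Tsc2 in the DKO libraries without rapamycin was likewise wholly above that in the Tsc2 KO libraries without rapamycin. The part of these differences in the rapamycin results and in the DKO results below was not tested. Tfeb was at 1.99 to 3.48 FPKM in Cagg DKO against 6.98 to 8.33 FPKM in Tsc2 KO and at 2.57 to 3.18 against 5.58 to 6.09 FPKM with vehicle, while KSP DKO at 2.65 to 4.09 FPKM overlapped Tsc2 KO at 3.66 to 6.12 FPKM. In Tfeb KO against control its log2 fold change was -0.80 in Cagg (adjusted p = 0.394) and -0.33 in KSP (adjusted p = 0.627). In the Cagg cohort the count and FPKM tables name 4 of the 12 libraries differently, and for 2 of these the genotype differs (Tfeb KO or DKO). The FPKM names were used. Calls that the other names changed are given with both, and all other Cagg values with the FPKM names only. The library named DKO in the FPKM table and Tfeb KO in the count table had Tsc2 at 5.26 FPKM and the one named the other way round at 10.2 FPKM, beside 9.81 to 10.6 FPKM in the Cagg controls and 4.06 to 4.55 FPKM in Tsc2 KO, so Tsc2 goes against the count table's names for both. All KSP libraries were female by Xist and Y-linked genes, whereas the Cagg cohort mixed sexes unevenly, with 3 males among the controls and 3 females among the Tfeb KO mice. One KSP DKO library stood apart: its 14 macrophage markers summed to 842 FPKM against 83.9 and 114 in the other two.

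The promoters of Ctsa, Ctsd, Ctsl and Lgmn are shown. They were picked because these members rose with loss of Tsc2 in every cohort and have a window with the CACGTG core. RefSeq windows of 300 bases, 250 before to 50 after a gene start on GRCm38.p6, were on hand for 8 of the 10 members, and for Ctsa and Lgmn each at 2 starts. Windows for Ctsb and Ctsh were not used here. CACGTG reads the same on both strands, and so does the longer TCACGTGA, which contains it. Among all 32851 windows of this length 7.15% hold CACGTG and 0.974% hold TCACGTGA. Of the 10 member windows 5 hold CACGTG, at 1 start each of Ctsa, Ctsd, Ctsf, Ctsl and Lgmn. The windows of Ctsk, Ctss and Ctsz and the other starts of Ctsa and Lgmn do not hold these letters. Ctsk, Ctss and Ctsz were each called increased with loss of Tsc2 in at least 1 cohort, and Ctsf in none. Whether these letters go with the rise was not tested. The sequences below run 5′ to 3′ on the strand of the gene, with CACGTG in capitals. The Ctsa window at its downstream start is chr2:164833523-164833822 (+), the Ctsd window is chr7:142387778-142388077 (-), the Ctsl window is chr13:64370471-64370770 (-) and the Lgmn window at its downstream start is chr12:102439043-102439342 (-).
Ctsa: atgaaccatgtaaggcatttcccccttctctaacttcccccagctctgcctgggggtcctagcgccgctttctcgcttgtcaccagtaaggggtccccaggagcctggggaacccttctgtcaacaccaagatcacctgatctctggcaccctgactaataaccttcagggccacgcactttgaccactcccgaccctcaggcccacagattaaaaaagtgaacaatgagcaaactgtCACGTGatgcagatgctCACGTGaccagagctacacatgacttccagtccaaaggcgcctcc
Ctsd: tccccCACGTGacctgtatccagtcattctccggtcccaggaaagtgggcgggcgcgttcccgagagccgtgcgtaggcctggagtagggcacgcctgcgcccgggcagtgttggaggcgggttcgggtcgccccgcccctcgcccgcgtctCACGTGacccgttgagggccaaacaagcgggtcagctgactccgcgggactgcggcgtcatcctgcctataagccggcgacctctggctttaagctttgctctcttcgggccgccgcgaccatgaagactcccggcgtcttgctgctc
Ctsl: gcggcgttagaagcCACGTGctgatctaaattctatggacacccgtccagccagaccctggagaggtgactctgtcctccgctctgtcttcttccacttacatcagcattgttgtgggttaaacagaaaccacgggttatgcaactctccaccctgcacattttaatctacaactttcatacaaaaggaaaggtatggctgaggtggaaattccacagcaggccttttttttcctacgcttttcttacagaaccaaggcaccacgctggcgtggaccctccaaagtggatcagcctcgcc
Lgmn: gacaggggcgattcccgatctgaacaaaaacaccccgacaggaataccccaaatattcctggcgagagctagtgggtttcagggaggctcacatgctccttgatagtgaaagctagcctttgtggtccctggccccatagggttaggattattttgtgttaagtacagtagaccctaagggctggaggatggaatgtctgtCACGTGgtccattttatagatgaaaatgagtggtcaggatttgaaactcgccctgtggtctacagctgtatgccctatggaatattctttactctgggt
In Ctsa both copies lie within TCACGTGA, at base -12 and base 6 from the start. In Ctsd the copy at base -98 lies within TCACGTGA and the one at base -245 does not. The single copies of Ctsl and Lgmn begin at base -236 and base -49. In Ctsf, chr19:4854915-4855214 (+), 1 copy begins at base -79.

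Lgmn was the most abundant member and Ctsk the least abundant in every group, as FPKM, a level scaled by gene length. In Cagg controls Lgmn averaged 412 ± 23.5 FPKM (SD, n = 3), followed by Ctsd at 172 ± 8.42, Ctsb at 162 ± 5.04 and Ctsl at 129 ± 0.752 FPKM. Ctsd and Ctsb overlapped there and cannot be ordered. Ctsz at 98.8 ± 13.1 FPKM and Ctsa at 73.1 ± 8.14 FPKM came next, then Ctsf at 60.3 ± 6.48 FPKM and Ctsh at 45.6 ± 6.02 FPKM, while Ctss and Ctsk were far lower, at 10.3 ± 1.43 and 6.81 ± 1.97 FPKM. Ctsz and Ctsa, and Ctsf and Ctsh, did not overlap with each other in this group. Lgmn alone made up 35.2% of the members' summed level in Cagg controls, 35.6% in KSP controls and 36.9% in vehicle-treated controls. The sum in TPM, FPKM rescaled so that all libraries have the same total, was 2645 ± 121 in Cagg controls, 2520 ± 94.6 in KSP controls and 2577 ± 217 in vehicle-treated controls. Bulk kidney RNA cannot tell fewer cells of a type from less RNA per cell, which holds for all values below.

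**Figure D1:**
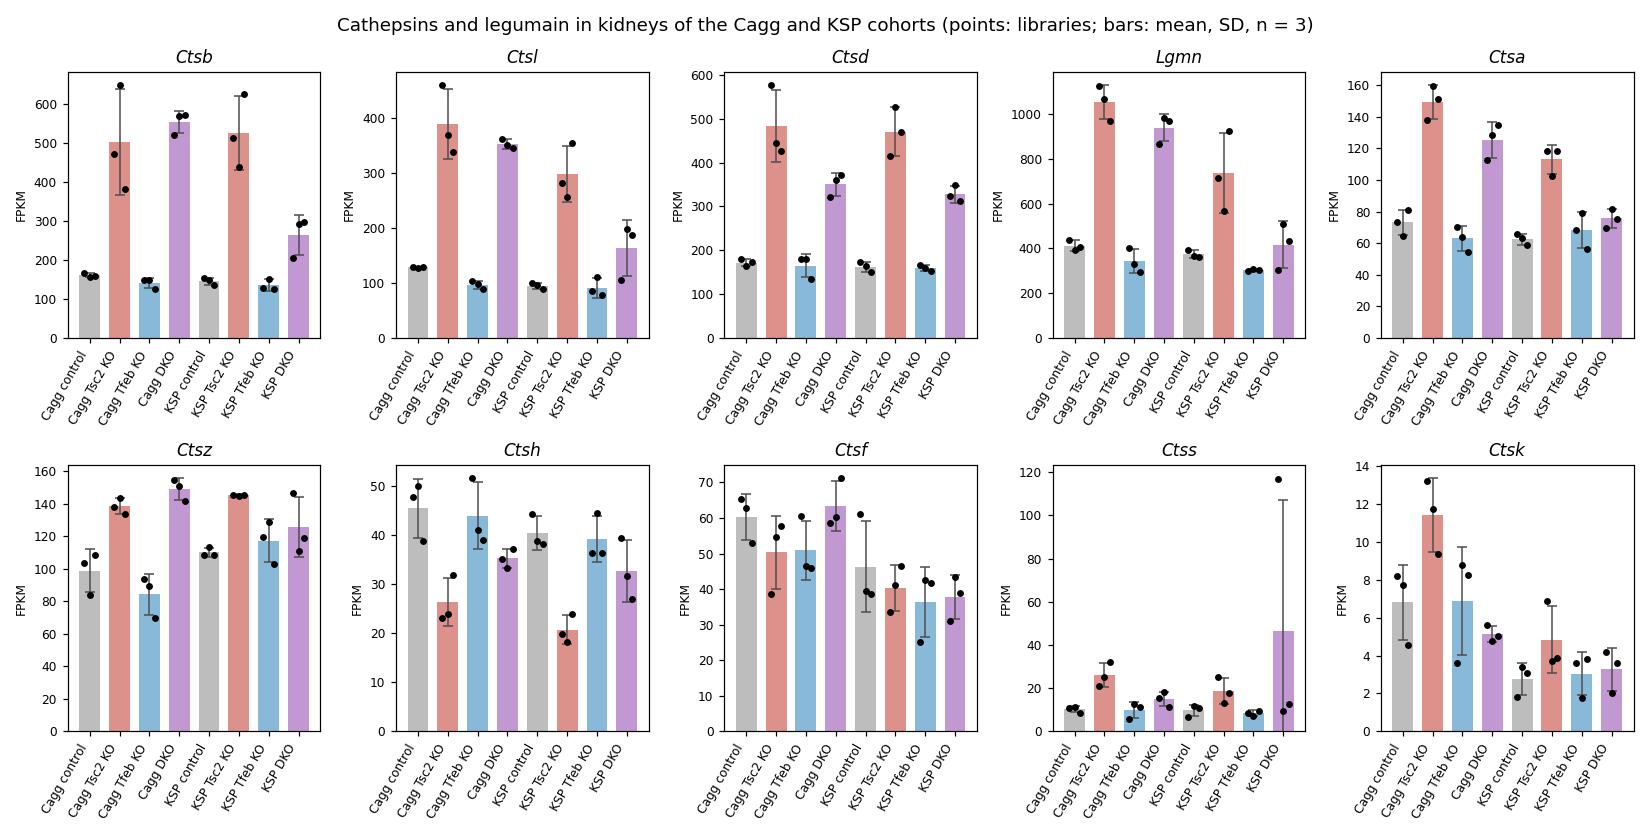
Levels of the 10 members in the Cagg and KSP cohorts, one panel per gene, with FPKM on the vertical axis and the 8 groups on the horizontal axis. Points are single libraries, bars the mean and whiskers the SD of 3 libraries. In both cohorts the 3 Tsc2 KO libraries of Ctsb, Ctsl, Ctsd, Lgmn and Ctsa lie above all controls, those of Ctsh lie below, and 1 KSP DKO library of Ctss is at 117 FPKM.

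Loss of Tsc2 raised most of the family in all 3 cohorts. Between Tsc2 KO and control, 7 of 10 members rose and 1 fell in Cagg, 5 of 9 rose and 1 fell in KSP, and 7 of 10 rose and 1 fell in the vehicle-treated mice. A call needed a mean of 5 FPKM in at least 1 group compared, a level Ctsk did not reach in KSP, and a Benjamini-Hochberg adjusted p from edgeR's quasi-likelihood test not above 0.05. Of all genes tested that reached this level, on which every such share is based, 23% were called increased and 15.5% decreased in Cagg, 9.42% and 8.74% in KSP, and 23.8% and 24.6% in the vehicle-treated mice. The median log2 fold change of the 10 members was 1.24, 0.89 and 1.18 in the 3 cohorts, against 0.06, -0.01 and 0.00 over all genes tested. Their summed TPM was 2.65 times the control in Cagg Tsc2 KO kidneys, 2.48 times in KSP and 2.93 times in the vehicle-treated mice, or 2.42, 2.26 and 2.27 times on the deposited FPKM scale. The FPKM of the 2 groups did not overlap for 9 of 10 members in Cagg, 8 of 9 in KSP and 8 of 10 in the vehicle-treated mice, and for 52%, 43.1% and 56.4% of all genes tested.

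Ctsb, an endopeptidase that also trims dipeptides from the C-terminus, was at 167, 157 and 160 FPKM in the Cagg controls and at 471, 649 and 383 FPKM in the Cagg Tsc2 KO kidneys. In KSP it was at 153, 148 and 136 FPKM in controls and at 512, 439 and 625 FPKM with Tsc2 KO. The groups did not overlap in either cohort. Its log2 fold change was 1.70 ± 0.17 (SE, adjusted p = 2.86e-05) in Cagg, 1.85 ± 0.19 (adjusted p = 2.13e-04) in KSP and 1.49 ± 0.21 (adjusted p = 4.6e-05) in the vehicle-treated mice, that is 3.24-fold, 3.60-fold and 2.80-fold.

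Ctsl, a broad endopeptidase with the CACGTG window printed above, was at 129, 128 and 128 FPKM in Cagg controls and at 461, 369 and 339 FPKM with Tsc2 KO. In KSP the controls were at 99.3, 96.4 and 89.5 FPKM and the Tsc2 KO kidneys at 283, 257 and 355 FPKM. Every Tsc2 KO library exceeded every control library. The log2 fold change was 1.66 ± 0.13 in Cagg (adjusted p = 6.3e-06), 1.65 ± 0.24 in KSP (adjusted p = 0.00118) and 1.79 ± 0.23 in the vehicle-treated mice (adjusted p = 2.01e-05).

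Ctsd, the main aspartic protease of the lysosome, rose from 180, 163 and 174 FPKM to 578, 446 and 426 FPKM in Cagg, and from 174, 164 and 150 FPKM to 415, 527 and 470 FPKM in KSP. In the vehicle-treated mice it rose from 208, 108 and 169 FPKM to 751, 642 and 591 FPKM. The last is the highest set of Ctsd values among the 14 groups, and its lowest library was above every library of the other 13 groups. The log2 fold change was 1.55 ± 0.15 (adjusted p = 2.16e-05), 1.53 ± 0.13 (adjusted p = 8.22e-05) and 2.03 ± 0.25 (adjusted p = 1.2e-05) in the 3 cohorts.

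Lgmn, legumain, was at 439, 393 and 405 FPKM in Cagg controls and at 1123, 1068 and 969 FPKM with Tsc2 KO, the highest levels of any member. In KSP it was at 394, 365 and 362 FPKM in controls and at 715, 568 and 925 FPKM with Tsc2 KO, with more spread between the mutant mice. The log2 fold change was 1.42 ± 0.13 in Cagg (adjusted p = 1.6e-05), 0.97 ± 0.21 in KSP (adjusted p = 0.00952) and 0.88 ± 0.26 in the vehicle-treated mice (adjusted p = 0.0152). The last call was lost without control vehicle replicate 2 (adjusted p = 0.0544) or without Tsc2 KO vehicle replicate 1 (adjusted p = 0.0790).

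Ctsa, cathepsin A, which also protects beta-galactosidase and neuraminidase in a complex, was at 73.3, 64.8 and 81.1 FPKM in Cagg controls and at 138, 159 and 151 FPKM with Tsc2 KO. Its log2 fold change was 1.09 ± 0.13 in Cagg (adjusted p = 7.51e-05), 0.85 ± 0.14 in KSP (adjusted p = 0.00244) and 0.62 ± 0.17 in the vehicle-treated mice (adjusted p = 0.0105). Ctsz, cathepsin Z or X, a carboxypeptidase, rose by less. It went from 104, 83.9 and 109 FPKM to 138, 144 and 134 FPKM in Cagg, a log2 fold change of 0.55 ± 0.12 (adjusted p = 0.00574). In KSP its log2 fold change of 0.40 ± 0.13 did not pass (adjusted p = 0.0596), although all 3 Tsc2 KO libraries, at 145 to 146 FPKM, were above the controls at 109 to 114 FPKM, and it was called with DESeq2 (adjusted p = 0.0254) and with only the groups compared (adjusted p = 0.0260). In the vehicle-treated mice the groups overlapped and the log2 fold change was -0.05 ± 0.14 (adjusted p = 0.801). Ctsz overlaps Nelfcd on the opposite strand, whose counts came to 15.3% to 34.7% of those of Ctsz, and unstranded reads of both genes cannot be told apart where they overlap. Likewise Fdft1 overlaps Ctsb, with 1.74% to 7.89% of its counts, and Pltp overlaps Ctsa, with 0.75% to 9.59%.

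Ctsh, cathepsin H, the aminopeptidase of the family, moved the other way. It was at 47.9, 50.1 and 38.8 FPKM in Cagg controls and at 23.2, 24.0 and 32.0 FPKM in Cagg Tsc2 KO kidneys. In KSP it fell from 44.4, 38.8 and 38.3 FPKM to 19.9, 18.3 and 24.1 FPKM, and in the vehicle-treated mice from 46.7, 36.6 and 41.8 FPKM to 18.7, 15.4 and 18.3 FPKM. No Tsc2 KO library of a cohort reached a control library of that cohort. The log2 fold change was -0.73 ± 0.14 (adjusted p = 0.00281), -0.97 ± 0.16 (adjusted p = 0.00253) and -1.26 ± 0.11 (adjusted p = 3.67e-07). Its share of the members' summed level was 3.90% in Cagg controls and 0.933% with Tsc2 KO, and 3.95% and 0.725% in the vehicle-treated mice. Ctsf, cathepsin F, had log2 fold changes of -0.20 ± 0.15, -0.20 ± 0.23 and -0.31 ± 0.19 (adjusted p = 0.357, 0.64 and 0.209), with overlapping groups in every cohort. Markers of the proximal tubule were lower beside these changes: the 12 of them summed to 4361 to 4715 FPKM in Cagg controls and to 1086 to 2156 FPKM in Cagg Tsc2 KO kidneys, to 4161 to 5061 and 1698 to 2737 FPKM in KSP, and to 4334 to 4743 and 796 to 1219 FPKM in the vehicle-treated mice. All 3 podocyte markers fell in each cohort, from a sum of 139.5 to 154 to one of 38.6 to 58.9 FPKM in Cagg, from 88.4 to 108 to 29.7 to 39.8 FPKM in KSP, and from 86.4 to 113 to 20.1 to 25.9 FPKM in the vehicle-treated mice. Of 9 markers of the loop, distal tubule and collecting duct 6 fell in Cagg, and 3 fell and 1 rose in each of the others. The part of these lists in the values of Ctsh or of the members that rose was not tested.

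**Figure D2:**
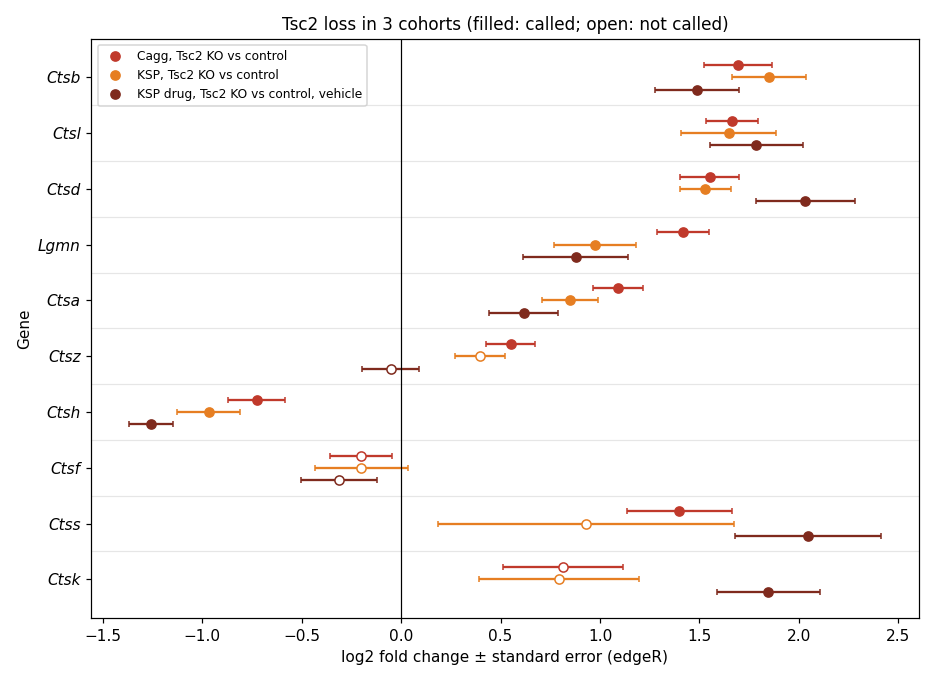
Log2 fold change of each member in Tsc2 KO against control, with whiskers of 1 standard error from edgeR, for the Cagg cohort, the KSP cohort and the vehicle-treated KSP mice. Filled points were called and open points were not. Ctsb, Ctsl, Ctsd, Lgmn and Ctsa are filled and to the right of 0 in all 3 cohorts, and Ctsh is filled and to the left of 0.

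Ctss and Ctsk are the members with the strongest known ties to other cells, Ctss to macrophages and other antigen-presenting cells and Ctsk to osteoclasts and fibroblasts. Ctss was at 11.0, 11.3 and 8.67 FPKM in Cagg controls and at 21.1, 25.1 and 32.0 FPKM with Tsc2 KO, a log2 fold change of 1.40 ± 0.26 (adjusted p = 0.00203). In the vehicle-treated mice it went from 4.91, 6.43 and 6.08 FPKM to 22.3, 27.7 and 21.8 FPKM, a log2 fold change of 2.04 ± 0.37 (adjusted p = 3.82e-04). In KSP, controls at 6.88, 11.8 and 10.7 FPKM and Tsc2 KO kidneys at 25.4, 13.1 and 17.8 FPKM gave 0.93 ± 0.74 (adjusted p = 0.467), although these groups did not overlap. The KSP fit also held the DKO library with Ctss at 117 FPKM. Its spread enters this test and those of the macrophage markers in KSP. Of 14 macrophage markers, none of them at 0 in any library, 9 reached 5 FPKM. Of these 4 rose in Cagg, 1 rose in KSP, and in the vehicle-treated mice 7 rose and Csf1r fell, where 23%, 9.42% and 23.8% of all genes tested rose. The sum of all 14 was 115 to 148 FPKM in Cagg controls against 180 to 232 FPKM with Tsc2 KO, 68.2 to 98.7 against 127 to 213 FPKM in KSP, and 57.1 to 74.0 against 127 to 234 FPKM in the vehicle-treated mice. Their part in the Ctss values was not tested. Cd68, the marker with the largest rise in each cohort, is itself a lysosomal protein.

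Ctsk was at 1.70, 1.69 and 1.35 FPKM in vehicle-treated controls and at 6.96, 5.45 and 4.67 FPKM in vehicle-treated Tsc2 KO kidneys, a log2 fold change of 1.85 ± 0.26 (adjusted p = 4.12e-05). In Cagg it was at 8.17, 7.70 and 4.55 FPKM and at 13.2, 11.7 and 9.34 FPKM, and 0.81 ± 0.30 did not pass (adjusted p = 0.0593), although Ctsk was called with DESeq2 (adjusted p = 0.0334), with no filter on low counts (adjusted p = 0.00922), with only the groups compared (adjusted p = 0.0414) and without Tsc2 KO replicate 3 (adjusted p = 0.0452). In KSP the log2 fold change was 0.79 ± 0.40 (adjusted p = 0.228). Of the osteoclast markers, Oscar, Dcstamp and Ocstamp were at or under 0.252 FPKM in all 42 libraries and at 0 in 12 to 18 of them, while Acp5, Mmp9 and Calcr reached 44.4, 2.08 and 1.64 FPKM. In the vehicle-treated Tsc2 KO kidneys, where Ctsk rose, Acp5 fell (-0.73 ± 0.20, adjusted p = 0.00787), and the 6 osteoclast markers summed to 14.9 to 21.5 FPKM against 22.9 to 35.3 FPKM in controls. Of 6 fibroblast markers 5 reached 5 FPKM in the vehicle-treated mice and 3 rose there, Col1a1, Col3a1 and Col1a2 (log2 fold changes 2.14, 1.67 and 1.31). The 6 summed to 27.5, 83.1 and 65.5 FPKM in the Tsc2 KO libraries and to 29.0, 41.1 and 19.0 FPKM in the controls, in the order of the Ctsk values above. No marker of the list was called by edgeR in Cagg or KSP, where Col1a1 had log2 fold changes of 0.67 and 1.52 (adjusted p = 0.359 and 0.0509). Their part was not tested.

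**Figure D3:**
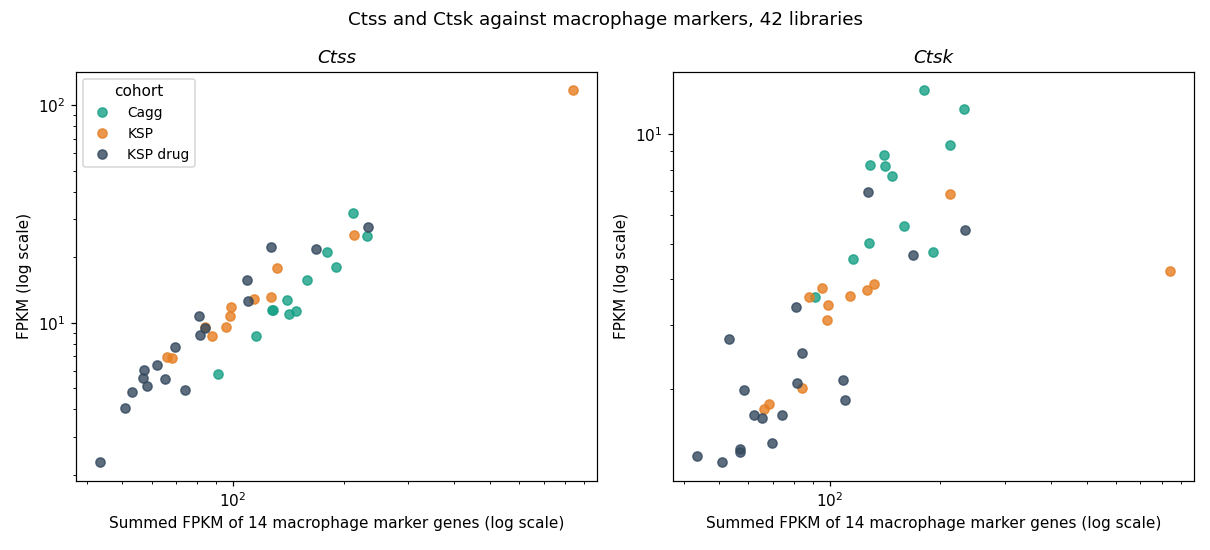
Level of Ctss and of Ctsk in FPKM (vertical log axes) against the summed FPKM of 14 macrophage markers (horizontal log axes) in the 42 libraries, coloured by cohort. Ctss is high where the marker sum is high, up to the KSP DKO library at 842 and 117 FPKM, while Ctsk in that library is at 4.20 FPKM.

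Additional loss of Tfeb was asked of each model by setting DKO against Tsc2 KO, groups that also differed in Tsc2 as given above. In Cagg 0 of 10 members rose and 1, Ctsk, fell, against 6.91% and 7.56% of all genes tested. There were 5 members at an unadjusted p under 0.05, beside 2676 of 7906 genes. In Ctsa, Ctsd, Ctsk and Ctss every DKO library lay below every Tsc2 KO library, in Ctsf and Ctsh every one lay above, and the other 4 members overlapped. These 6 of 10 stand beside 37.2% of all genes tested whose groups did not overlap. Ctsb was at 520, 568 and 570 FPKM in the Cagg DKO kidneys, within the range of the Tsc2 KO libraries (log2 fold change 0.12 ± 0.17, adjusted p = 0.698). Ctsl and Lgmn also overlapped, with -0.17 ± 0.13 and -0.19 ± 0.13 (adjusted p = 0.436 and 0.373). Ctsd was lower in all 3 DKO libraries, at 321, 360 and 371 FPKM, and -0.49 ± 0.15 just missed the threshold (adjusted p = 0.0528). Ctss at 15.7, 18.1 and 11.5 FPKM was below the Tsc2 KO libraries as well (-0.81 ± 0.26, 0.571-fold, adjusted p = 0.0699). Ctsa was at -0.28 ± 0.12, Ctsh at 0.40 ± 0.14 and Ctsf at 0.31 ± 0.15 (adjusted p = 0.178, 0.102 and 0.224), and Ctsz at 0.08 ± 0.12 (adjusted p = 0.72). Ctsk fell to 5.59, 4.77 and 5.03 FPKM, a log2 fold change of -1.18 ± 0.30 (0.442-fold, adjusted p = 0.0303), and this call was lost with sex as a covariate (adjusted p = 0.0556), with the names of the count table (adjusted p = 0.101) and without any 1 of 5 of the 6 libraries compared (all but Tsc2 KO replicate 3, adjusted p = 0.0587 to 0.117). Without Tsc2 KO replicate 3 Ctsd was called decreased and Ctsh increased (adjusted p = 0.0264 and 0.0239). DESeq2 called 3 members decreased in this comparison, Ctsd and Ctss beside Ctsk, and 0 increased, where it called 10.6% and 9.11% of all genes. The macrophage markers summed to 127.5 to 191 FPKM in DKO, with 1 of 9 called decreased, and the proximal tubule markers to 2751 to 3247 FPKM, with 6 of 11 called increased. All 3 podocyte markers were called increased too, as was 1 of 9 of the loop, distal tubule and collecting duct. Acp5, the only osteoclast marker that reached 5 FPKM, was called increased, the other way from Ctsk. None of the 5 fibroblast markers at that level was called. Their part in these values was not tested.

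Set against control, 6 of 10 members remained higher in the Cagg DKO kidneys and 0 were lower, against 10.2% and 4.73% of all genes tested. The groups did not overlap for 8 of 10 members and 43.5% of all genes. The 6 were Ctsb, Ctsl, Lgmn, Ctsd, Ctsa and Ctsz, with log2 fold changes of 1.81, 1.50, 1.23, 1.06, 0.82 and 0.63 (adjusted p = 2.49e-05 to 0.00639). Ctsz, at 155, 151 and 142 FPKM, was higher than in any control. Ctss, Ctsf, Ctsh and Ctsk had log2 fold changes of 0.59, 0.11, -0.33 and -0.37 (adjusted p = 0.195, 0.737, 0.183 and 0.53). Of the markers 3 of 12 of the proximal tubule and all 3 of the podocyte fell, to sums of 2751 to 3247 and 89.3 to 94.3 FPKM. Of 9 markers of the loop, distal tubule and collecting duct 1 fell, and 1 of 9 of the macrophage rose. The part of these lists was not tested. The members' summed TPM was 2.21 times the control. With the names of the count table in place of those of the FPKM table, which exchange one library between DKO and Tfeb KO and go against Tsc2 in both libraries, 0 of the 6 were called (adjusted p = 0.488 to 0.729), although their log2 fold changes were still 0.33 to 1.42. The same names took Ctsb, Ctsl and Ctsz out of the calls for Tsc2 KO against control (adjusted p = 0.0593, 0.0553 and 0.176), with log2 fold changes as before.

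In KSP the DKO kidneys lay lower. Ctsb was at 206, 293 and 296 FPKM, Ctsl at 106, 199 and 188 FPKM, Ctsd at 324, 348 and 311 FPKM and Ctsa at 69.6, 81.8 and 75.5 FPKM. Each of these values was below every Tsc2 KO library of the cohort, as were the Lgmn values of 304, 511 and 434 FPKM, while Ctsh at 39.6, 31.7 and 26.9 FPKM was above. Of all genes tested 23.2% did not overlap between these groups, as did 6 of 9 members. The log2 fold changes in DKO against Tsc2 KO were -0.98 ± 0.18 for Ctsb, -0.86 ± 0.23 for Ctsl, -0.82 ± 0.21 for Lgmn, -0.57 ± 0.14 for Ctsa, -0.52 ± 0.13 for Ctsd and 0.66 ± 0.16 for Ctsh. Ctsz, Ctsf and Ctsk were at -0.21, -0.09 and -0.56 (adjusted p = 0.543, 0.92 and 0.622). None of the first 6 passed in edgeR (adjusted p = 0.0583 to 0.15), nor did any other member, so 0 of 9 were called, against 0.117% of all genes tested increased and 0.169% decreased. At an unadjusted p under 0.05 there were 6, the same 6, beside 1063 of 7700 genes, and DESeq2 called the same 6 with adjusted p-values from 2.46e-05 to 0.0136, 1 increased and 5 decreased, where it called 2.26% and 1.81% of all genes. Against control 2 of 9 members rose in KSP DKO and 0 fell, with 2.33% and 1.56% of all genes tested. DESeq2 called 3 increased and 0 decreased, beside 5.42% and 4.45% of all genes. The groups did not overlap for 4 of 9 members and 30.5% of all genes. The members other than Ctsd, Ctsb, Ctsl and Ctss had log2 fold changes from -0.31 to 0.27 (adjusted p = 0.308 to 0.808). Of the proximal tubule markers 3 of 11 fell, to a sum of 2040 to 3360 FPKM from 4161 to 5061 FPKM, as did 2 of 3 podocyte markers, to 48.6 to 62.1 FPKM from 88.4 to 108 FPKM, and their part was not tested. Against Tsc2 KO none of either list was called. Of 9 markers of the loop, distal tubule and collecting duct 1 rose against Tsc2 KO and 1 against control. Their sum was 3014 to 4559 FPKM in DKO, 2607 to 2797 FPKM in Tsc2 KO and 2198 to 2751 FPKM in controls. Against control 1 of 9 macrophage markers rose as well. The part of these lists was not tested either. Ctsd rose by 1.01 ± 0.13 (adjusted p = 0.0043), and Ctsb by 0.87 ± 0.18 (adjusted p = 0.0295), a call lost without any 1 of 5 of the 6 libraries (all but DKO replicate 1, adjusted p = 0.0707 to 0.105). Without DKO replicate 1, the library rich in macrophage markers, Ctsl was called too (1.02, adjusted p = 0.0185). With all libraries Ctsl was at 0.79 ± 0.23 (adjusted p = 0.0935), and DESeq2 called it (adjusted p = 0.0157).

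That library decides Ctss in KSP DKO, where the 3 values were 117, 9.58 and 12.8 FPKM. With it the log2 fold change against control was 2.24 ± 0.76 (adjusted p = 0.134, or 0.0442 with no filter on low counts), and without it 0.19 (adjusted p = 0.858). Against Tsc2 KO it was 1.31 ± 0.73 with the library and -0.74 without it (adjusted p = 0.501 and 0.402). Its Lyz2, C1qb and C1qa were at 403, 110 and 107 FPKM, against 13.5 to 27.5 FPKM in the other DKO libraries. Its Ctsb, Ctsl, Lgmn and Ctsa were the lowest of the 3 DKO libraries.

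In the drug cohort with vehicle, DKO against Tsc2 KO gave 3 members decreased and 2 increased of 10, where 12.6% and 16.9% of all genes tested were called. Ctsd fell by 0.89 ± 0.24 on the log2 scale (adjusted p = 0.015), from 751, 642 and 591 FPKM to 418, 303 and 349 FPKM. Ctsk and Ctss fell as well, with log2 fold changes of -1.35 ± 0.25 (adjusted p = 0.00122) and -1.08 ± 0.35 (adjusted p = 0.0381). Ctsh rose from 18.7, 15.4 and 18.3 FPKM to 30.7, 33.2 and 33.2 FPKM (0.89 ± 0.11, adjusted p = 3.87e-05), and Ctsf from 42.7, 31.6 and 40.9 FPKM to 58.6, 60.9 and 55.5 FPKM (0.60 ± 0.19, adjusted p = 0.0327). Beside these values 5 of 9 macrophage markers fell, to a sum of 81.2 to 109 FPKM from 127 to 234 FPKM, and 9 of 11 proximal tubule markers rose, to a sum of 2319 to 3894 FPKM from 796 to 1219 FPKM. Both podocyte markers that reached 5 FPKM rose as well. Of 9 markers of the loop, distal tubule and collecting duct 4 rose and 1 fell, to a sum of 3277 to 3583 FPKM from 1616 to 2666 FPKM. Of the 5 fibroblast markers that reached 5 FPKM 1 fell. Acp5, the only osteoclast marker at that level, rose, the other way from Ctsk. The part of these lists was not tested. Ctsb, Ctsl and Lgmn had log2 fold changes of -0.50, -0.62 and -0.54 that did not pass (adjusted p = 0.0976, 0.0609 and 0.154), and DKO replicate 2 was the lowest of its group for all 3, at 225, 118 and 285 FPKM. Ctsa and Ctsz were at -0.36 and 0.31 (adjusted p = 0.15 and 0.133). There was no overlap of the groups for 5 of 10 members and 46.6% of all genes. DESeq2 called Ctsl as well (adjusted p = 0.0285). Without DKO vehicle replicate 1 or without Tsc2 KO vehicle replicate 2 Ctsl was called (adjusted p = 0.0138 and 0.022). The call of Ctsd was lost without Tsc2 KO vehicle replicate 1 or DKO vehicle replicate 2 or 3 (adjusted p = 0.0507 to 0.0547), that of Ctsf without any library but Tsc2 KO vehicle replicate 1 (adjusted p = 0.0545 to 0.144) and that of Ctss without any library but DKO vehicle replicate 2 (adjusted p = 0.058 to 0.131). Ctsk and Ctsh kept theirs each time. Set against vehicle-treated controls 3 of 9 members were higher in DKO and 0 lower, against 5.37% and 3.05% of all genes tested. They were Ctsl, Ctsd and Ctsb (log2 fold changes 1.17, 1.14 and 0.99, adjusted p = 0.00763, 0.0125 and 0.0119). Ctsh, at 30.7 to 33.2 FPKM in DKO and 36.6 to 46.7 FPKM in controls, was lower in every DKO library, and its -0.37 ± 0.11 did not pass in edgeR (adjusted p = 0.055) but was called decreased by DESeq2 (adjusted p = 0.0148) and by edgeR without control vehicle replicate 2 (adjusted p = 0.0379). The other 6 members had log2 fold changes from 0.25 to 0.96 (adjusted p = 0.121 to 0.466). The groups did not overlap for 5 of 9 members and 31.8% of all genes. Beside these values 3 of 11 proximal tubule markers and 1 of 7 macrophage markers fell. The sum of the whole macrophage list went the other way from that 1 marker. It was 81.2 to 109 FPKM in DKO, above every control at 57.1 to 74.0 FPKM. Of 9 markers of the loop, distal tubule and collecting duct 2 rose and 1 fell. The part of these lists was not tested. Fitted with these 2 groups alone, none of Ctsl, Ctsd and Ctsb was called (adjusted p = 0.0614 to 0.083). In the fit of all 6 groups the call of Ctsb was lost without control vehicle replicate 3 or DKO vehicle replicate 1 (adjusted p = 0.0577 and 0.0531) and that of Ctsd without control vehicle replicate 2 (adjusted p = 0.0513).

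No member passed the threshold in Tfeb KO kidneys, where Tfeb itself was not called lower in either cohort. In Cagg the groups differed in sex as well as genotype, with 3 male controls beside 3 female Tfeb KO mice. Within this pair the effects of Tfeb and of sex cannot be told apart. The Cagg interaction below uses the same libraries. Tfeb KO against control gave 0 of 10 in Cagg, where 0.0128% of genes were called in each direction, and 0 of 9 in KSP, where 0% were called in either direction. DESeq2 called 0 members in both as well, beside 0.294% of genes increased and 0.397% decreased in Cagg and 0.0537% and 0.094% in KSP. At an unadjusted p under 0.05 there was 1 member in Cagg (607 of 7803 genes), Ctsl, at 104, 98.6 and 88.7 FPKM below the controls at 128 to 129 FPKM (log2 fold change -0.38 ± 0.13, adjusted p = 0.475), and 0 in KSP (841 of 7476 genes). The other 9 members in Cagg had log2 fold changes from -0.24 to 0.05 (adjusted p = 0.672 to 0.997), and the 10 in KSP from -0.34 to 0.14 (adjusted p = 0.645 to 0.964). Ctsb and Ctsl in Cagg and Lgmn in KSP lay wholly below the controls, 2 of 10 and 1 of 9 members beside 13.9% and 11% of all genes. Whether the Tfeb effect differs with and without Tsc2 was tested as an interaction, which called 0 of 10 members in Cagg and 0 of 9 in KSP, against 2.13% and 0% of all genes tested. There were 3 members at an unadjusted p under 0.05 in Cagg (Ctsd, Ctsf and Ctsk), beside 1751 of 8341 genes, and 5 in KSP (Ctsa, Ctsb, Ctsd, Ctsh and Ctsl), beside 929 of 8125 genes. DESeq2 called 0 members in both, against 7.52% and 0.927% of all genes. The interaction terms of the 10 members ran from -1.23 to 0.53 in Cagg (adjusted p = 0.181 to 0.934) and from -0.89 to 1.53 in KSP (adjusted p = 0.362 to 0.82). In Cagg, Ctsk was called with no filter on low counts (adjusted p = 0.0250) and without Tfeb KO replicate 1 (adjusted p = 0.0339). The Cagg values of Tfeb KO and of the interaction are given with the FPKM names only. The count table's names exchange a library between Tfeb KO and DKO.

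**Figure D4:**
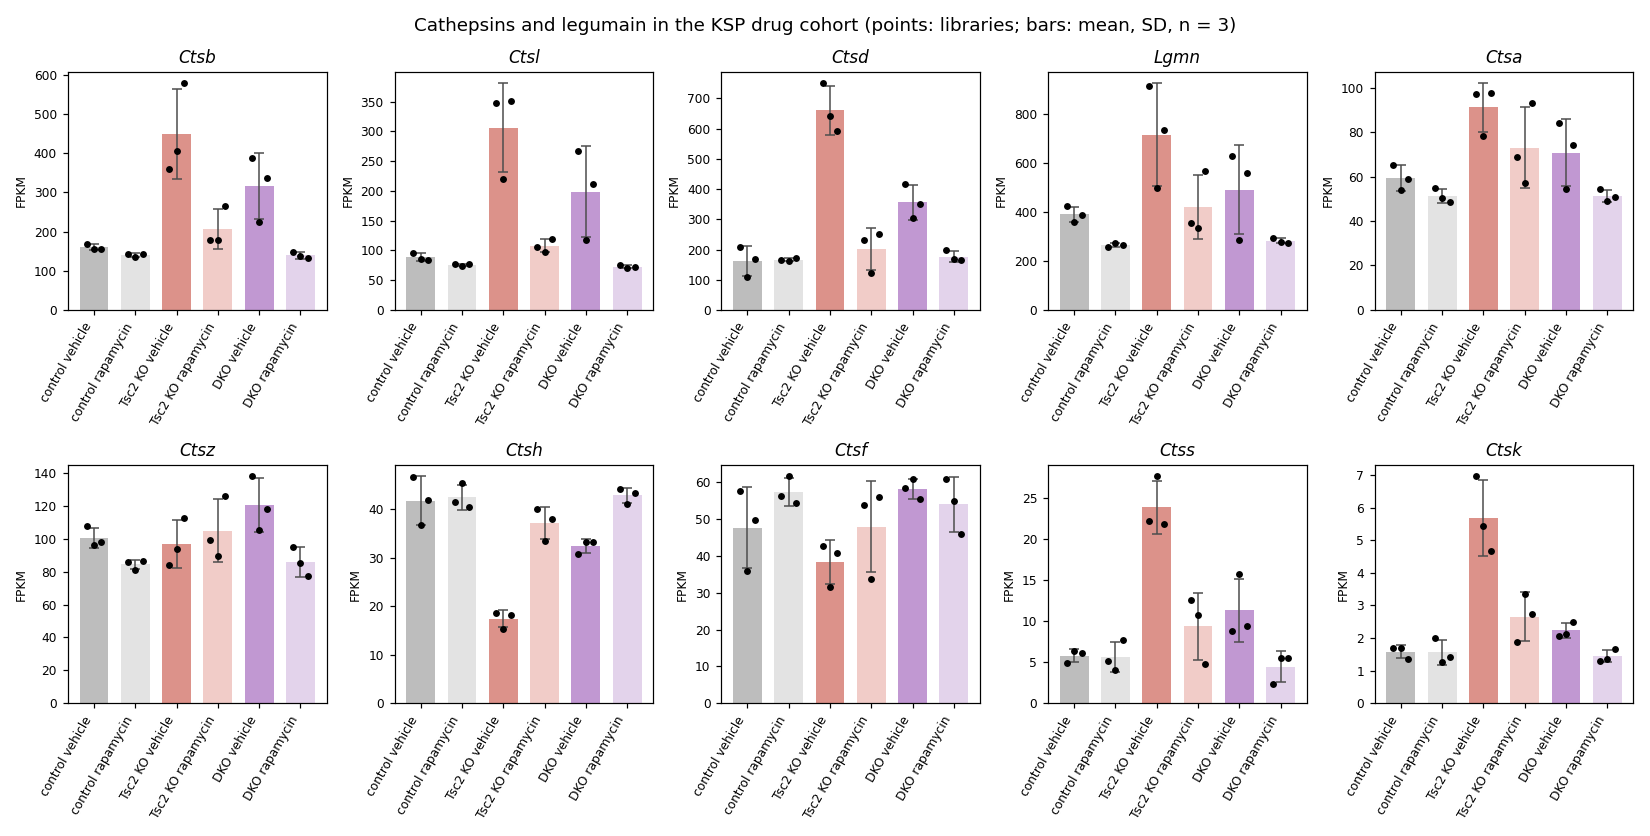
Levels of the 10 members in the KSP drug cohort, one panel per gene, with FPKM on the vertical axis and control, Tsc2 KO and DKO kidneys with vehicle or rapamycin on the horizontal axis. Points are single libraries, bars the mean and whiskers the SD of 3 libraries. With rapamycin the Tsc2 KO libraries of Ctsd, at 123 to 250 FPKM, lie below those with vehicle, at 591 to 751 FPKM, and those of Ctsh lie above.

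Rapamycin lowered most members in Tsc2 KO kidneys and raised Ctsh. Of 10 members 6 fell and 1 rose, against 17.3% and 21.2% of all genes tested, and the median log2 fold change of the members was -0.93 against 0.01 over all genes tested. Ctsd fell from 751, 642 and 591 FPKM to 232, 123 and 250 FPKM, a log2 fold change of -1.71 ± 0.25 (adjusted p = 9.59e-05). Ctsl fell from 347, 219 and 351 FPKM to 106, 97.8 and 120 FPKM (-1.50 ± 0.23, adjusted p = 1.55e-04), and Ctsb from 360, 406 and 578 FPKM to 178, 178 and 265 FPKM (-1.11 ± 0.21, adjusted p = 8.54e-04). No rapamycin library of these 3 genes reached a vehicle library. The groups did not overlap for 6 of 10 members, beside 47.6% of all genes. Ctss fell to 12.6, 10.8 and 4.80 FPKM (-1.34 ± 0.36, adjusted p = 0.01) and Ctsk to 1.87, 3.36 and 2.74 FPKM (-1.10 ± 0.25, adjusted p = 0.00374), while 6 of 9 macrophage markers fell and their sum was 53.2 to 110 FPKM. Lgmn, at 916, 498 and 735 FPKM with vehicle and 355, 336 and 569 FPKM with rapamycin, overlapped between the groups and was called at -0.77 ± 0.26 (adjusted p = 0.0378), a call lost without Tsc2 KO vehicle replicate 1 or 3 or Tsc2 KO rapamycin replicate 1 or 2 (adjusted p = 0.0787 to 0.167). It was also lost with only the groups compared (-0.74, adjusted p = 0.0991). Ctsh rose to 40.0, 33.5 and 37.9 FPKM, close to the vehicle-treated controls (1.09 ± 0.11, adjusted p = 3.02e-06), and the proximal tubule markers summed to 4006 to 4658 FPKM, with 10 of 11 called increased. Both podocyte markers that reached 5 FPKM rose as well. Of 9 markers of the loop, distal tubule and collecting duct 4 rose and 1 fell. Their sum was 2708 to 3403 FPKM with rapamycin and 1616 to 2666 FPKM with vehicle. Of the 5 fibroblast markers that reached 5 FPKM 1 fell. The part of these lists was not tested. Ctsa, Ctsz and Ctsf had log2 fold changes of -0.32, 0.12 and 0.32 (adjusted p = 0.188, 0.581 and 0.224). Ctsa was called decreased without Tsc2 KO rapamycin replicate 3 (adjusted p = 0.0345) and Ctsf increased without Tsc2 KO rapamycin replicate 2 (adjusted p = 0.0404).

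In control mice the same treatment moved no member past the threshold, against 0% of all genes tested increased and 0.0664% decreased in edgeR and 0.199% and 0.399% in DESeq2. Every rapamycin library of Ctsb, Ctsl, Ctsz and Lgmn lay below every vehicle library, 4 of 9 members beside 22.9% of all genes whose groups did not overlap. The 1 member at an unadjusted p under 0.05, beside 1094 of 7535 genes, was Lgmn, at 423, 360 and 386 FPKM with vehicle and at 255, 273 and 266 FPKM with rapamycin (log2 fold change -0.56 ± 0.26, adjusted p = 0.441). The other members had log2 fold changes from -0.25 to 0.27 (adjusted p = 0.498 to 0.977). The difference of the rapamycin effect between Tsc2 KO and control was called for 5 of 10 members, against 29.8% of all genes tested: Ctsd (-1.75 ± 0.34, adjusted p = 0.00224), Ctsl (-1.28 ± 0.32, adjusted p = 0.0106), Ctsk (-1.07 ± 0.36, adjusted p = 0.0459), Ctsb (-0.92 ± 0.29, adjusted p = 0.0355) and Ctsh (1.07 ± 0.15, adjusted p = 2.23e-04). The calls of Ctsd, Ctsl and Ctsh held without each single library of the 4 groups, whereas that of Ctsb held only without control vehicle replicate 1, Tsc2 KO vehicle replicate 1 or 2 or Tsc2 KO rapamycin replicate 3 (otherwise adjusted p = 0.0546 to 0.0936), and that of Ctsk only without control rapamycin replicate 2, Tsc2 KO vehicle replicate 3 or Tsc2 KO rapamycin replicate 2 (otherwise adjusted p = 0.0565 to 0.132). For Lgmn the effects in the 2 genotypes differed by -0.21 ± 0.37 (adjusted p = 0.729). For Ctss they differed by -1.30 ± 0.51 (adjusted p = 0.0816), called by DESeq2 (adjusted p = 0.0468) and without Tsc2 KO rapamycin replicate 1 (adjusted p = 0.0470), and for Ctsa, Ctsf and Ctsz by -0.11, 0.05 and 0.37 (adjusted p = 0.672, 0.912 and 0.212).

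DKO kidneys responded to rapamycin as well. Against DKO with vehicle 4 of 9 members fell and 1 rose, where 4.7% and 2.73% of all genes tested were called. Ctsb fell from 389, 225 and 337 FPKM to 149, 139 and 132 FPKM (-1.18 ± 0.21, adjusted p = 0.00449), Ctsl from 268, 118 and 211 FPKM to 75.3, 70.0 and 72.1 FPKM (-1.46 ± 0.23, adjusted p = 0.00194), and Ctsd from 418, 303 and 349 FPKM to 199, 167 and 164 FPKM (-1.01 ± 0.24, adjusted p = 0.0249). Ctss fell by 1.34 ± 0.37 (adjusted p = 0.043) and Ctsh rose by 0.41 ± 0.11 (adjusted p = 0.0382) on the log2 scale. In these libraries the macrophage markers summed to 43.4 to 65.2 FPKM with rapamycin and 81.2 to 109 FPKM with vehicle, and of the 7 that reached 5 FPKM C1qb and C1qc fell and Csf1r rose. The proximal tubule markers summed to 4329 to 4620 and 2319 to 3894 FPKM, and 1 of 11 rose. Of 9 markers of the loop, distal tubule and collecting duct 1 rose and 1 fell. The part of these lists was not tested. The calls of Ctss and Ctsh were lost without any 1 of the 6 libraries (adjusted p = 0.058 to 0.147 and 0.0671 to 0.121), and that of Ctsd without 4 of them, DKO vehicle replicates 1 and 3 and DKO rapamycin replicates 2 and 3 (adjusted p = 0.0539 to 0.109). Ctsb and Ctsl kept their calls. With no filter on low counts Ctsh was not called (0.41, adjusted p = 0.0893). Lgmn, Ctsz and Ctsa were at -0.80, -0.49 and -0.46 (adjusted p = 0.0877, 0.0569 and 0.134), and all 3 were called decreased without DKO vehicle replicate 2 (adjusted p = 0.0127, 0.0447 and 0.0475). DESeq2 called Lgmn and Ctsz (adjusted p = 0.0290 and 0.0184). Ctsk and Ctsf were at -0.62 and -0.11 (adjusted p = 0.175 and 0.786). There was no overlap for 6 of 9 members and 37.8% of all genes. Between DKO and Tsc2 KO the rapamycin effect differed for 1 of 10 members, Ctsh (-0.69 ± 0.15, adjusted p = 0.0129), against 11% of all genes tested, and for Ctsb, Ctsl and Lgmn the difference was -0.07 ± 0.29, 0.05 ± 0.32 and -0.03 ± 0.37. The other 6 members had differences from -0.60 to 0.70 (adjusted p = 0.0841 to 0.998), of which that of Ctsz, -0.60 ± 0.20, was called by DESeq2 (adjusted p = 0.0428) and without Tsc2 KO vehicle replicate 3 (adjusted p = 0.0467). These comparisons share the vehicle-treated Tsc2 KO and DKO libraries.

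**Figure D5:**
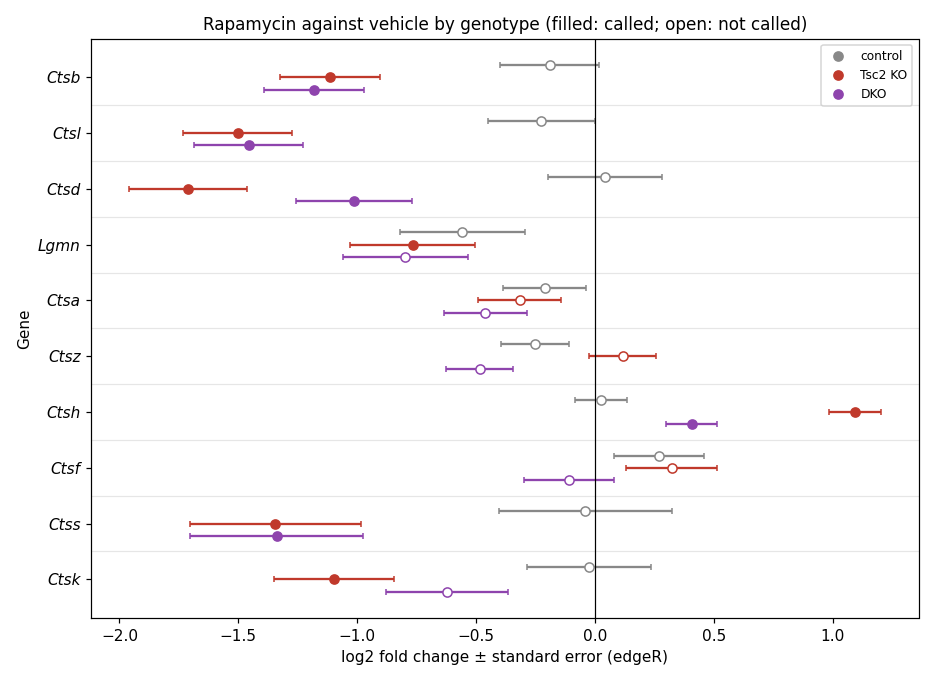
Log2 fold change of each member with rapamycin against vehicle, with whiskers of 1 standard error from edgeR, in control, Tsc2 KO and DKO kidneys of the KSP drug cohort. Filled points were called and open points were not. No point of the control mice is filled, Ctsd, Ctsl, Ctsb and Ctss are filled and to the left of 0 in Tsc2 KO and DKO, and Ctsh is filled and to the right in both.

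With rapamycin in both groups, no member passed the threshold for Tsc2 KO against control or for DKO against Tsc2 KO. Rapamycin-treated DKO was not set against rapamycin-treated controls. Tsc2 KO against control gave 0 of 9 in both directions (0.688% and 0.132% of all genes tested) and DKO against Tsc2 KO 0 of 9 (0.119% and 0.278%) in edgeR. DESeq2 called 0 members in both too, beside 1.76% and 0.821% of all genes in the first and 0.701% and 1.32% in the second. At an unadjusted p under 0.05 there were 5 members in each, beside 1108 of 7555 and 853 of 7566 genes. The median log2 fold change of the members was 0.51 in the first and -0.54 in the second, against 0.01 and -0.02 over all genes tested. Single members ran from -0.26 to 0.77 in the first (adjusted p = 0.217 to 0.647) and from -1.08 to 0.20 in the second (adjusted p = 0.201 to 0.831). In Tsc2 KO every library of Ctsa, Ctsb, Ctsl, Ctsz and Lgmn lay above every control, and every library of Ctsh below, 6 of the 9 members at 5 FPKM or more beside 19% of all genes whose groups did not overlap. In DKO every library of Ctsa, Ctsb, Ctsl and Lgmn lay below every Tsc2 KO library and every library of Ctsh above, 5 of 9 members beside 16.9% of all genes, and Ctsk, under 5 FPKM, lay below as well. In the first comparison Ctsb was at 144, 134 and 143 FPKM in controls and 178, 178 and 265 FPKM in Tsc2 KO, without overlap (0.56 ± 0.21, adjusted p = 0.265), and in the second at 149, 139 and 132 FPKM in DKO (-0.57 ± 0.21, adjusted p = 0.314). Summed over the members the TPM was 0.860 times the vehicle-treated control in rapamycin-treated controls, 1.20 times in Tsc2 KO and 0.909 times in DKO, compared with 2.93 times in Tsc2 KO and 1.62 times in DKO with vehicle. Rapamycin in Tsc2 KO was also set against Tfeb loss in Tsc2 KO, the vehicle-treated DKO kidneys. There 0 of 9 members were called in edgeR, against 0.66% of all genes tested increased and 1.09% decreased, with 3 at an unadjusted p under 0.05 beside 1745 of 7725 genes. DESeq2 called 3 decreased, Ctsl, Ctsd and Ctsb, beside 4.45% of all genes. Their log2 fold changes in edgeR were -0.88, -0.82 and -0.61 (adjusted p = 0.0635, 0.0944 and 0.128), those of the other members -0.28 to 0.25 (adjusted p = 0.312 to 0.91), and the groups did not overlap for 2 of 9 members and 22.9% of all genes. Without DKO vehicle replicate 2 Ctsl was called by edgeR (adjusted p = 0.00371). Ctsd was at 123 to 250 FPKM under rapamycin and 303 to 418 FPKM in DKO.

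Other lysosomal peptidases and their cofactors followed in part. Of 22 listed genes 12 were tested and 10 reached 5 FPKM, and with loss of Tsc2 7 rose and 0 fell in Cagg, 6 rose and 1 fell in KSP, and 5 rose and 1 fell in the vehicle-treated mice, where 23%, 9.42% and 23.8% of all genes tested rose and 15.5%, 8.74% and 24.6% fell. Psap, the precursor of the saposins that help to degrade sphingolipids, had log2 fold changes of 2.18, 1.38 and 1.37 (adjusted p = 1.41e-05, 5.82e-04 and 6.56e-05), and Grn, progranulin, 1.36, 0.98 and 1.37 (adjusted p = 8.41e-06, 0.00327 and 1.19e-07). Ctsc, cathepsin C, which activates serine proteases of immune cells, rose by 2.08 ± 0.17 in the vehicle-treated mice (adjusted p = 2.09e-07). Napsa, an aspartic protease found in kidney and lung, fell by 2.89 ± 0.34 there (adjusted p = 8.6e-06), the same direction as Ctsh. Rapamycin lowered 3 of these 10 in Tsc2 KO, Ctsc, Grn and Psap, and raised Napsa, where 17.3% of all genes tested fell. In DKO it lowered 6 of 10, among them Ctsc (-1.20), Psap (-0.93), Scpep1 (-0.58) and Grn (-0.42), where 4.7% of all genes tested fell.

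A few endogenous inhibitors were called increased as well. Of 11 listed, 4 were tested and 3 reached 5 FPKM, and loss of Tsc2 raised 2 in Cagg, 2 in KSP and 3 in the vehicle-treated mice, set against the same shares. Cstb, cystatin B, a cytosolic inhibitor of cysteine cathepsins, had log2 fold changes of 1.72, 1.17 and 1.43 (adjusted p = 1.12e-05, 4.74e-04 and 3.99e-06), and Serpinb6a, an intracellular serpin, 2.46, 2.49 and 2.54 (adjusted p = 2.85e-07, 6.03e-05 and 2.21e-07). Rapamycin lowered both in Tsc2 KO, by 1.13 ± 0.16 and 1.82 ± 0.20 on the log2 scale (adjusted p = 6.15e-05 and 8.86e-06). Of the genes of sorting to the lysosome 3 of 9 rose and 1 fell in Cagg, 2 of 8 rose and 1 fell in KSP, and 3 of 8 rose and 1 fell in the vehicle-treated mice, beside 23%, 9.42% and 23.8% of all genes tested that rose. Gnptab, which builds the mannose 6-phosphate tag, was called increased in all 3 (1.11, 1.29 and 1.01), whereas Lrp2, megalin, the uptake receptor of the proximal tubule, was called decreased in all 3 (-1.08, -1.31 and -2.50, adjusted p = 0.00152, 0.0095 and 7.76e-08). Neu1 and Glb1, the partners of Ctsa, were called for Tsc2 loss only once in the 3 cohorts, Neu1 in Cagg (0.78, adjusted p = 0.00142). In KSP Neu1 was at 0.67 (adjusted p = 0.0542).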

How the data were processed

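Kidney poly-A RNA was sequenced without strand information in 42 libraries, 3 in each of 14 groups taken from the labels. The authors deposited raw read counts per gene and, in a second table, FPKM, which scale counts by gene length and library. The submitters' processing notes name mm10, STAR 2.6.1d, HISAT2 2.0.5, featureCounts 1.5.0-p3 and DESeq2 1.20.0, with no role or order. Where the 2 Cagg tables disagreed on names, the FPKM names were used. Columns were matched by the ratio of FPKM times gene length to counts, which is constant over the genes of a library. Libraries held 14926050 to 22807605 counted reads.

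Counts were tested with edgeR 4.0.16 in R 4.3.3 (filterByExpr, TMM, quasi-likelihood), with all groups of a cohort in 1 fit and Benjamini-Hochberg adjustment over all genes that passed the count filter. A call needed an adjusted p not above 0.05 and a mean of 5 FPKM or more in a group compared, and shares of genes called are of those that reached this level. Groups were said not to overlap where every FPKM of one lay above every FPKM of the other. DESeq2 1.42.0, its kind of size factors in edgeR, no filter on low counts, no FPKM minimum, only the groups compared, a replicate block, sex as a covariate, the count table's names and leaving out each library were tried as alternatives. The tests were tried on simulated data first. Levels were read from the deposited FPKM. The p-values measure the spread between these mice. The rule for naming covered all 10 members in every comparison, some of them given as a range, and of each other gene list up to 4 called genes with the largest change, of which fewer are printed. The members and lists were chosen with earlier results of these data known.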

Additional observations from a re-analysis of the deposited data

Results flagged for a closer look

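The rapamycin effect differed between genotypes for 6 results, by a test of the difference itself (edgeR interaction terms). Between Tsc2 KO and control mice the log2 fold change with rapamycin differed by -0.92 for Ctsb, -1.28 for Ctsl, -1.75 for Ctsd, -1.07 for Ctsk and 1.07 for Ctsh (Tsc2 KO minus control), 5 of 10 members against 29.8% of all genes tested. Leaving out 1 library gave 3 to 4 members here, with the calls of Ctsb and Ctsk each lost in most of these fits. Between DKO and Tsc2 KO the rapamycin effect differed by -0.69 for Ctsh, which had risen by 1.09 with rapamycin in Tsc2 KO and by 0.41 in DKO. That is 1 of 10 members, against 11% of all genes tested, a share near the background. In groups of 3 libraries no test for a single outlying sample was run.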

How the results depend on the processing

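No called fold change turned its sign under any alternative, while 90 uncalled ones did, 14 of them with the count table's names. With those names, 5 members were called for Cagg Tsc2 KO against control in place of 8, 0 in place of 1 for DKO against Tsc2 KO and 0 in place of 6 for DKO against control. DESeq2 called 3 members in place of 1 for Cagg DKO against Tsc2 KO, 6 in place of 0 for the same comparison in KSP, 3 in place of 0 for rapamycin-treated Tsc2 KO against vehicle-treated DKO, and 2 in place of 1 for the difference of rapamycin effects between DKO and Tsc2 KO. It also called 9 in place of 8 (with Ctsk) and 7 in place of 6 (with Ctsz) for Tsc2 loss in Cagg and KSP, 3 in place of 2 for KSP DKO against control (with Ctsl), 6 in place of 5 (with Ctsl) and 4 in place of 3 (with Ctsh) for vehicle-treated DKO against Tsc2 KO and control, 7 in place of 5 for rapamycin in DKO (with Lgmn and Ctsz), and 6 in place of 5 for the difference of rapamycin effects between Tsc2 KO and control (with Ctss). Of all genes DESeq2 called 23.5% increased and 16.4% decreased for Tsc2 loss in Cagg and 11.7% and 10.9% in KSP. In vehicle-treated DKO it called 18.7% and 13.9% against Tsc2 KO, and 8.5% and 5.91% against control. For rapamycin in DKO it called 4.88% and 7.28%. Its shares for the rapamycin differences were 34% for Tsc2 KO and control and 16% for DKO and Tsc2 KO. Its shares for the other comparisons named here are given above. With no filter on low counts 3 members were called for Cagg DKO against Tsc2 KO and 1 for the same comparison in KSP. There were 2 for rapamycin-treated Tsc2 KO against vehicle-treated DKO, and 1 in place of 0 for the Cagg Tfeb interaction. With only the groups compared, 1 in place of 2 was called for KSP DKO against control and 0 in place of 3 for vehicle-treated DKO against control. Under these 2 settings no other count moved by more than 1. Sex as a covariate, possible only in Cagg, left 0 in place of 1 for DKO against Tsc2 KO. The replicate block left 0 in place of 1 for Cagg DKO against Tsc2 KO (Ctsk, adjusted p = 0.0533), 1 in place of 2 for KSP DKO against control (without Ctsb, adjusted p = 0.0598), 4 in place of 5 for rapamycin in DKO (without Ctss, adjusted p = 0.0541) and 4 in place of 5 for the difference of rapamycin effects between Tsc2 KO and control (without Ctsk, adjusted p = 0.0656), and gave 6 in place of 5 for vehicle-treated DKO against Tsc2 KO (with Ctsl, adjusted p = 0.0288). The replicate numbers are only shared numbers: the deviations of same-numbered libraries had a median correlation of 0.0088 in Cagg, -0.040 in KSP and -0.0050 in the drug cohort. Leaving out 1 library gave 0 to 3 members for Cagg DKO against Tsc2 KO, 0 to 1 for the Cagg Tfeb interaction, 1 to 3 for KSP DKO against control, 2 to 4 for vehicle-treated DKO against Tsc2 KO, 2 to 3 for vehicle-treated DKO against control, 2 to 6 for rapamycin in DKO, 0 to 1 for rapamycin-treated Tsc2 KO against vehicle-treated DKO, 3 to 4 for the difference of rapamycin effects between Tsc2 KO and control, and 1 to 2 for that between DKO and Tsc2 KO. On the deposited FPKM scale the summed level was 1.42 times the control in KSP DKO in place of 1.55, 0.917 in KSP Tfeb KO in place of 0.797, and 2.275 in vehicle-treated Tsc2 KO in place of 2.93. The causes of these shifts were not tested. Ctsk was the least abundant member in every group, at a mean of 1.45 to 11.4 FPKM, and in KSP it was below the level a call needed.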
